A study of Mus musculus with 6 samples.

Results

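The enzymes that hydroxylate procollagen inside the cell and crosslink collagen and elastin outside it were followed through 10 genes in mouse embryo cells, which the series' title calls fibroblasts. The genes are the 5 lysyl oxidases Lox, Loxl1, Loxl2, Loxl3 and Loxl4 and the 3 lysyl hydroxylases Plod1, Plod2 and Plod3. The others are P4ha1 and P4ha2, 2 of the 3 catalytic alpha subunits of collagen prolyl 4-hydroxylase. All 10 were chosen by symbol, and each symbol matched 1 of the 46983 genes counted. RNA sequencing libraries came from cells of C57BL/6 embryos at day 14, used at passage 16. Of the 6 libraries, 3 carry the label wild type and 3 the label SphK2 null. SphK2 is sphingosine kinase 2, an enzyme that makes the lipid signal sphingosine-1-phosphate. No treatment was named in the labels, and how the null allele was made, whether each group was 1 line or several, and the sex of the embryos were not given in the sources used here. Below, the groups are called wild-type-labelled and null-labelled.

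Collagen chains are modified in the endoplasmic reticulum before they leave the cell. Prolyl 4-hydroxylase, built from an alpha subunit and the disulfide isomerase encoded by P4hb, turns prolines into hydroxyprolines that keep the triple helix stable at body temperature. Lysyl hydroxylases act on lysines, and both kinds of hydroxylase need iron, 2-oxoglutarate and ascorbate. After secretion, lysyl oxidases, which depend on copper, convert lysines and hydroxylysines of collagen, and lysines of elastin, into aldehydes that join neighbouring molecules. The kind of crosslink formed depends on whether the lysine was hydroxylated first, so these families act in sequence on the same fibres. In fibroblasts they are part of the ordinary machinery of matrix production, and stiff, heavily crosslinked collagen is a known feature of tumour stroma.

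The lysyl oxidases share a catalytic domain, and the coding sequence around its histidine-rich copper-binding stretch shows how far reads of these genes can be told apart. The 4 sequences below are from the GENCODE M21 transcripts on GRCm38, 5′ to 3′ on the coding strand, with the 4 histidine codons in capitals and the genomic span, intron included, in brackets.
Loxl1 (minus strand, chr9:58293720-58294381): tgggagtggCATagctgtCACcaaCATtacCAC
Loxl2 (plus strand, chr14:69682316-69689037): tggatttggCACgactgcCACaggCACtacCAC
Loxl3 (plus strand, chr6:83049995-83050125): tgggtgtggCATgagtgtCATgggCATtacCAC
Loxl4 (minus strand, chr19:42598807-42599899): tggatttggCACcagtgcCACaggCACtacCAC
Each stretch is 33 bases of coding sequence that an intron splits in the genome. Among these 4, Loxl2 and Loxl4 were the closest and differed at 2 bases, while Loxl3 differed from each of the others at 8 or more. The stretch of Lox was not compared. Over whole transcripts, no word of 51 bases, the length of the reads, was shared between any of the 10 genes. An exactly matching read of that length thus fits no more than 1 of the 10 genes.

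The total counts ran from 15598566 to 23681718 per library, and 3 counts correspond to 0.129 to 0.197 CPM, the unit of counts scaled to a common library size. Levels below are CPM scaled for composition with TMM factors. Levels compared between genes are RPKM, the same CPM divided by the exonic length in kilobases. Sphk2 itself was detected throughout, with 654, 418 and 503 counts under the wild-type label against 964, 883 and 921 under the null label. Its log2 fold change was 0.87 ± 0.051 (SE), higher where the label says null, so every direction here is between labels. No label states that the replicates were separate cultures. The p-values thus set the group difference only against the spread of these libraries, which may be technical.

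Fibroblast markers were far lower under the null label. All 11 of them were lower, 8 by over 16-fold, and their summed level went from between 12797 and 13193 CPM to between 3358 and 3393 CPM. Thy1, a surface antigen of fibroblasts, had 256 counts under the wild-type label and 0 under the null label. Vim, which encodes the filament protein vimentin, was lower by less, at a log2 fold change of -0.81 ± 0.019 (SE). At a mean of 3211 CPM, Vim made up most of the null-labelled sum of these markers. Pdgfra and Pdgfrb were 2.79-fold and 3.68-fold lower. Col1a1, Col1a2, Col3a1, Dcn and Lum are markers here and also belong to the substrate or partner lists below. Of 9 epithelial markers, Krt8 and Krt7 were higher, Krt18 was lower and 6 had too few counts to test, with a summed level of 107 to 110.1 CPM against 384 to 411 CPM that was mostly Krt8. Of 8 trophoblast markers, Hand1 was higher, Eomes was lower, 6 were not tested and Cdx2 and Prl3d1 were at 0 throughout, with sums of 1.18 to 2.09 against 19.9 to 20.7 CPM. The endothelial, blood, muscle and neural marker lists had 1, 2, 0 and 2 members higher and 1, 1, 1 and 0 lower. Their sums were 1.59 to 2.10 against 2.00 to 2.93, 3.74 to 3.77 against 5.67 to 6.56, 3.96 to 5.29 against 3.04 to 3.89 and 312 to 318 against 438 to 462 CPM. Emcn, Myod1 and Myog had 0 counts in all libraries. The part of these marker differences in the results below was not tested. In bulk RNA, fewer cells of a type and less RNA per cell cannot be told apart.

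All 10 enzymes had enough counts for the test, all differed between the groups, and the extracellular crosslinkers Lox, Loxl1 and Loxl3 moved furthest. Of the 10, 7 were lower in the null-labelled libraries and 3 higher at an adjusted p under 0.05 (edgeR quasi-likelihood test, adjusted by Benjamini and Hochberg over all 15199 genes tested). Over all genes tested, 41.1% were lower and 38.1% higher. The groups did not overlap in any of the 10, as in 79.9% of all genes. Lower by over 2-fold were 6 of the 10, against 15.8% of all genes, and lower by over 16-fold were 3, against 7.41%. The median log2 fold change of the 10 was -1.42, and that of all genes tested was -0.02. The plot of CPM by library shows all 10.

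**Figure D1:**
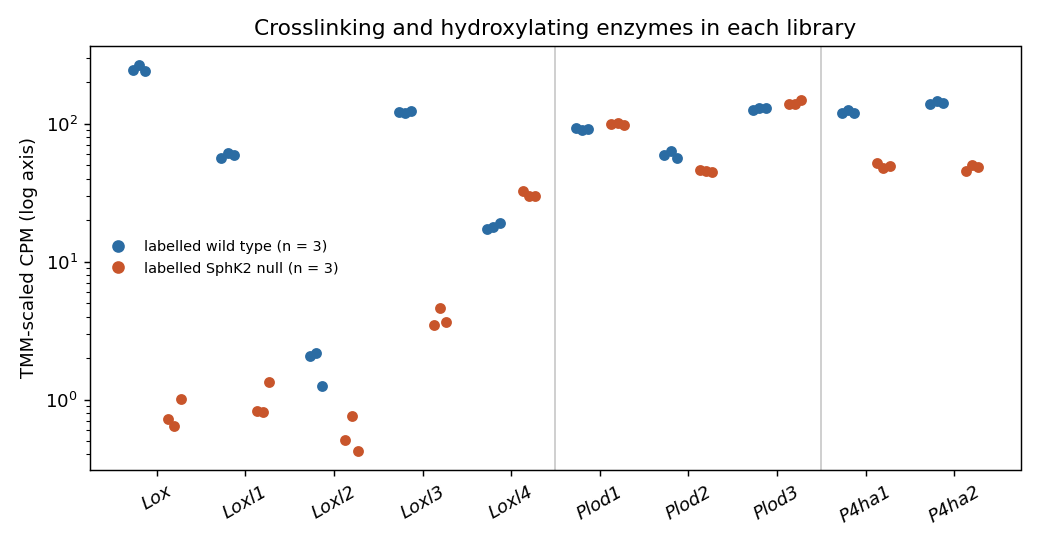
TMM-scaled CPM of the 10 enzyme genes (log axis) in the 3 wild-type-labelled (blue) and 3 null-labelled (orange) libraries, each point 1 library, with lines between the 3 families. Lox, Loxl1 and Loxl3 drop to a few CPM or less, while Plod1 and Plod3 stay at nearly the same height.

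Lox, the founding lysyl oxidase and the most abundant of its family in the wild-type-labelled libraries, was nearly lost from the null-labelled ones. It stood at 246, 266 and 241 CPM under the wild-type label and at 0.717, 0.642 and 1.01 CPM under the null label. These rest on 5726, 4050 and 4596 counts against 14, 11 and 19, so that the null-labelled level was low but above the level of 3 counts in each library. Lox was 313-fold lower (log2 fold change -8.29 ± 0.071 SE, edgeR adjusted p below 1e-300). In mm10, Lox (ENSMUSG00000024529) spans 52516069 to 52529867 of chromosome 18 on the minus strand, in 8 exon blocks.

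Loxl1, the lysyl oxidase best known for elastic fibres, followed at a smaller size. Its level was 56.0, 61.2 and 59.1 CPM in the wild-type-labelled libraries against 0.820, 0.818 and 1.33 CPM in the null-labelled ones. The highest null-labelled library was null-labelled replicate 3, as for Lox. Loxl1 was 58.6-fold lower (log2 fold change -5.87 ± 0.10 SE, edgeR adjusted p below 1e-300). The gene (ENSMUSG00000032334) spans 58287723 to 58313212 of chromosome 9 on the minus strand.

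Loxl3, one of the members with scavenger receptor domains, was the other gene of the family to fall by over 16-fold. It stood at 121, 120.1 and 124 CPM in the wild-type-labelled libraries against 3.48, 4.61 and 3.68 CPM in the null-labelled ones. The fall was 31.1-fold (log2 fold change -4.96 ± 0.065 SE, edgeR adjusted p below 1e-300), and the null-labelled level stayed well above that of Lox. Loxl3 (ENSMUSG00000000693) spans 83034173 to 83052562 of chromosome 6 on the plus strand. Of its 4603 exonic bases, 535 (11.6%) are shared with Htra2 on the other strand. Counting did not use strand, and by default such reads are assigned to neither gene, so the level of Loxl3 per length may be understated in all 6 libraries.

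Loxl2 was close to silent in both groups. It had 48, 33 and 24 counts under the wild-type label against 10, 13 and 8 under the null label, or 2.06, 2.17 and 1.26 CPM against 0.512, 0.759 and 0.426 CPM. The fall of 3.23-fold (log2 fold change -1.69 ± 0.29 SE, edgeR adjusted p = 6.77e-09) thus concerns a transcript that contributed 0.335% ± 0.087 (SD, n = 3) of the family's wild-type-labelled level per length. Of the distinct 51-base words in its transcripts, 44.9% also occur in transcripts of other genes, against at most 9.72% for the other 9 genes. Reads from such places may map to several positions and then go uncounted, so the level of Loxl2 is the least certain of the 10. Loxl2 (ENSMUSG00000034205) spans 69609068 to 69695834 of chromosome 14 on the plus strand.

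Loxl4 went the other way. It stood at 17.2, 17.9 and 19.1 CPM under the wild-type label and at 32.5, 29.96 and 29.9 CPM under the null label. The lowest null-labelled library lay above the highest wild-type-labelled one, and the rise was 1.71-fold (log2 fold change 0.77 ± 0.063 SE, edgeR adjusted p = 1.30e-34). Loxl4, which like Loxl2 and Loxl3 carries scavenger receptor domains, was thus the only lysyl oxidase that was higher. The gene (ENSMUSG00000025185) spans 42593982 to 42612813 of chromosome 19 on the minus strand and shares no exonic base with another gene.

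The lysyl hydroxylases hardly moved, and they were the only family of the 3 in which no gene changed by 2-fold. Plod1, whose product hydroxylates lysines within the collagen helix, stood at 92.4, 90.7 and 92.3 CPM under the wild-type label and at 99.2, 101.2 and 98.3 CPM under the null label. The rise was 1.08-fold (log2 fold change 0.12 ± 0.035 SE, edgeR adjusted p = 0.00167). Plod3, whose product also transfers glucose to galactosylated hydroxylysine, stood at 126, 130.1 and 130.1 CPM against 138, 139 and 149 CPM. It was 1.10-fold higher (log2 fold change 0.14 ± 0.031 SE, edgeR adjusted p = 6.17e-06). The groups did not overlap for either gene, although both rises were small beside the changes in the other families.

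Plod2, the hydroxylase of the telopeptide lysines at the ends of the chains, was the lysyl hydroxylase that fell. It stood at 59.4, 63.2 and 56.5 CPM under the wild-type label and at 46.3, 45.4 and 44.5 CPM under the null label. The fall was 1.31-fold (log2 fold change -0.39 ± 0.045 SE, edgeR adjusted p = 5.57e-18). Relative to Plod1 on the RPKM scale, Plod2 went from a ratio of 0.817 ± 0.054 to 0.572 ± 0.012 (SD, n = 3), with no overlap between the groups and an exact two-sided permutation p = 0.1, the smallest that 3 against 3 libraries allow. Gene counts do not separate the splice forms of Plod2. Plod1 (ENSMUSG00000019055), Plod2 (ENSMUSG00000032374) and Plod3 (ENSMUSG00000004846) lie on chromosomes 4, 9 and 5. Exonic bases shared with other genes on the opposite strand or with a microRNA made up 6.42% of Plod2 (with Gm38391), 11.9% of Plod3 (with Znhit1 and Mir702) and none of Plod1.

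The 2 prolyl 4-hydroxylase alpha subunits among the 10 fell together by an intermediate amount. P4ha1, the main catalytic subunit in most tissues, stood at 119, 125 and 121 CPM under the wild-type label and at 52.1, 48.1 and 49.3 CPM under the null label. It was 2.43-fold lower (log2 fold change -1.28 ± 0.039 SE, edgeR adjusted p = 1.42e-237). P4ha2, an alternative catalytic subunit, stood at 139, 146 and 140.3 CPM against 45.6, 50.3 and 48.2 CPM. It was 2.95-fold lower (log2 fold change -1.56 ± 0.038 SE, edgeR adjusted p below 1e-300). The ratio of P4ha2 to P4ha1 per length went from 0.769 ± 0.0021 to 0.637 ± 0.056 (SD, n = 3), without overlap (exact two-sided permutation p = 0.1, the smallest possible). The P4ha1 gene is ENSMUSG00000019916 and the P4ha2 gene ENSMUSG00000018906, and neither shares an exonic base with another gene.

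The promoters of the alpha subunits are shown because both genes are known targets of hypoxia-inducible factors and moved together here, with that of Loxl4, which moved the other way. The sequences are RefSeq promoter windows on GRCm38.p6, from 250 bases before to 50 after the start of transcription, and matching entries were found for 5 of the 10 genes. Capitals mark ACGTG or GCGTG on either strand, the core letters that hypoxia-inducible factors bind, with overlapping matches merged.
P4ha1 (plus strand, chr10:59323046-59323345): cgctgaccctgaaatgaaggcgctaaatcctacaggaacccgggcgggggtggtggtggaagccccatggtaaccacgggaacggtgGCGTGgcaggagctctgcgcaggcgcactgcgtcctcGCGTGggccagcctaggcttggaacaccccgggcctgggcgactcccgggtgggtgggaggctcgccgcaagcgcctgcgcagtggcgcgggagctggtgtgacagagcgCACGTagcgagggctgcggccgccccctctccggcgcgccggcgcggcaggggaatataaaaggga
P4ha2 (plus strand, chr11:54100674-54100973): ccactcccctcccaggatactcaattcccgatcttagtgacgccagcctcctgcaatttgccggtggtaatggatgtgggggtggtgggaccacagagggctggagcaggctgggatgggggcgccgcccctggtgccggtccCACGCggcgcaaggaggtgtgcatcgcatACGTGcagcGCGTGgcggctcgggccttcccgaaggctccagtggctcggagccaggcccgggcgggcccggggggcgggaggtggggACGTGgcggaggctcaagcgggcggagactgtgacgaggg
Loxl4 (minus strand, chr19:42612757-42613056): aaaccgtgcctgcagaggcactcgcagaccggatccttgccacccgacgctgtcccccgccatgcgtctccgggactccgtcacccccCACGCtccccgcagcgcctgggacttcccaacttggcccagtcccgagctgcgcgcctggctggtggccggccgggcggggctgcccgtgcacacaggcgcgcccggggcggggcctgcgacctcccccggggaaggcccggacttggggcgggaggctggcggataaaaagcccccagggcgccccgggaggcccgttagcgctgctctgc
The letters occurred at 3 places in the P4ha1 window, 163, 126 and 16 bases upstream of the start. In the P4ha2 window they occurred at 4 places, 107, 78 and 69 bases upstream and 10 bases downstream of the start. The counted P4ha2 gene begins at 54100095 in mm10, before this window, so the start used there lies inside the gene. The Loxl4 window held them at 1 place, and those of Plod1 and Plod3 at 2 and 4. Of all 32851 windows of the table, 43.8% held the letters at least once and 6.43% at 3 or more places. The G and C content was 70.3% in both alpha subunit windows, 75% in that of Loxl4, 64.3% in that of Plod1 and 53.3% in that of Plod3. Lox, Loxl1, Loxl2, Loxl3 and Plod2 had no matching entry. A match to these letters is a description of the sequence and not a measured binding site. The windows shown were chosen with the fold changes known, and a link between letters and fold changes was not tested.

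Per length, the order of the 10 genes was rearranged between the groups. In the wild-type-labelled libraries Lox led at 52.2 ± 2.74 RPKM (SD, n = 3). P4ha1 (29.6), Plod3 (28.5), Loxl3 (26.4), P4ha2 (22.7), Loxl1 (17.6), Plod1 (13.6), Plod2 (11.1), Loxl4 (4.28) and Loxl2 (0.338 RPKM) followed. No neighbours in that order overlapped in their library values. The lengths were not corrected for exonic bases shared with other genes, 11.9% of Plod3 and 11.6% of Loxl3 but none of P4ha1. Reads from such bases may go uncounted, so the order among P4ha1, Plod3 and Loxl3 is uncertain despite the lack of overlap. In the null-labelled libraries Plod3 led at 31.5 ± 1.37 RPKM (SD, n = 3). Plod1 (14.7), P4ha1 (12.1), Plod2 (8.42), P4ha2 (7.70), Loxl4 (7.30), Loxl3 (0.853), Loxl1 (0.297), Lox (0.164) and Loxl2 (0.105 RPKM) came after it. There P4ha2 overlapped with Loxl4, and Lox with Loxl2, so these neighbours did not differ beyond their spread. Lox thus went from rank 1 to rank 9, into the range of the barely detected Loxl2.

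**Figure D2:**
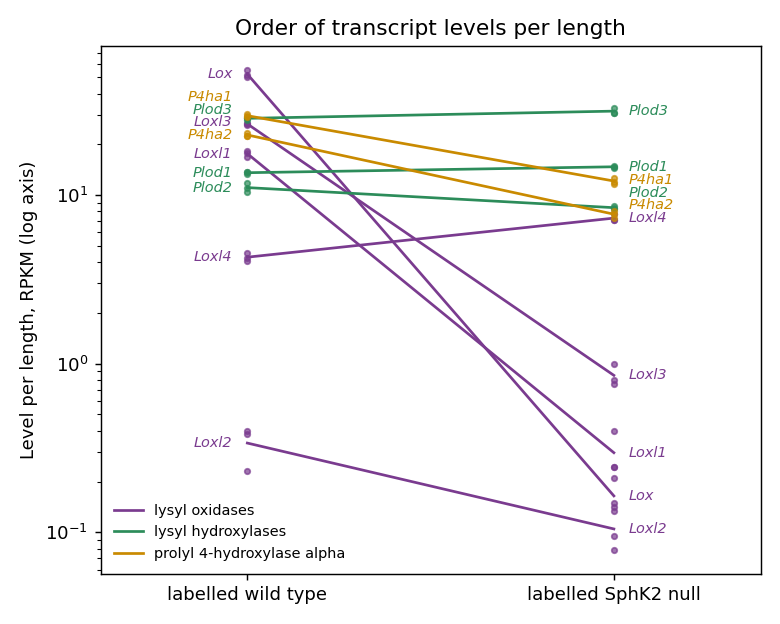
Level per length in RPKM (log axis) of the 10 enzyme genes in wild-type-labelled and null-labelled libraries, with points for the 3 libraries of each group and lines between group means. Lox descends from 52.2 to 0.164 RPKM and crosses every line except that of Loxl2, while the lines of Plod1 and Plod3 are almost flat.

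The make-up of the lysyl oxidase family turned over. Loxl4 made up 4.13%, 4.07% and 4.55% of the family's summed RPKM under the wild-type label and 86.1%, 82.4% and 82.6% under the null label. Its share thus rose by 79.5 percentage points (exact two-sided permutation p = 0.1, the smallest possible), although its own level rose only 1.71-fold. Lox held 51.7% ± 1.31, Loxl3 26.2% ± 1.07 and Loxl1 17.5% ± 0.426 of the wild-type-labelled sum (SD, n = 3). In the null-labelled libraries these shares were 1.89% ± 0.494, 9.79% ± 1.63 and 3.41% ± 1.08 (SD, n = 3). Within the lysyl hydroxylases the shares moved little, with Plod3 at 53.6% ± 0.674 against 57.6% ± 1.37, Plod1 at 25.5% ± 0.590 against 26.96% ± 0.841 and Plod2 at 20.8% ± 0.976 against 15.4% ± 0.591 (SD, n = 3). P4ha1 held 56.5% ± 0.068 of the sum of P4ha1 and P4ha2 in the wild-type-labelled and 61.1% ± 2.11 in the null-labelled libraries (SD, n = 3). Each of these shares differed without overlap between the groups, with the same exact p = 0.1.

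**Figure D3:**
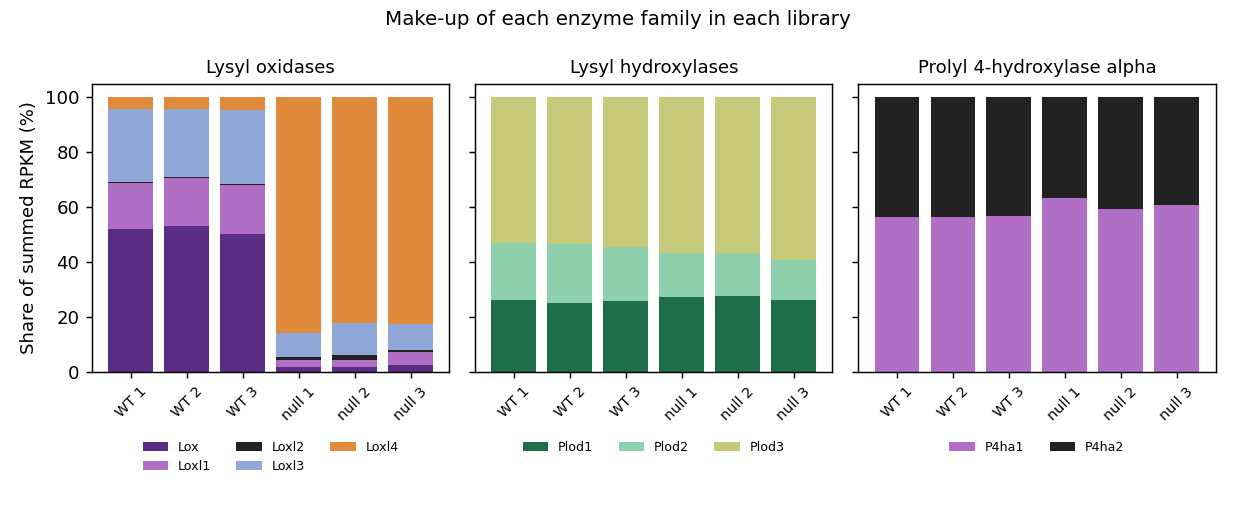
Share of each gene in the summed RPKM of its family (%), 1 bar for each library, for lysyl oxidases, lysyl hydroxylases and P4ha1 with P4ha2. In the lysyl oxidase panel Loxl4 grows from 4.07 to 4.55% in the wild-type-labelled bars to between 82.4 and 86.1% in the null-labelled ones, and the other panels keep their proportions within a few percentage points.

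Summed over each family, lysyl oxidase and alpha subunit transcripts were lower under the null label, while the sums of the lysyl hydroxylases overlapped between the groups. The 5 lysyl oxidases summed to 98.7, 104 and 99.4 RPKM under the wild-type label and to 8.96, 8.63 and 8.57 RPKM under the null label, 11.6-fold lower. The 3 lysyl hydroxylases summed to 52.7, 53.9 and 52.9 against 53.9, 54.1 and 55.8 RPKM, and the groups overlapped (exact two-sided permutation p = 0.2, where 0.1 is the smallest possible). Singly, each of the 3 had passed the edgeR test, with Plod2 lower and the other 2 higher. P4ha1 and P4ha2 summed to 51.3, 53.8 and 51.8 against 19.98, 19.8 and 19.7 RPKM, 2.64-fold lower. For the lysyl oxidases and the alpha subunits the groups did not overlap, with an exact p = 0.1.

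The fibrillar collagens and elastin, which are among the substrates of these enzymes, fell as far as the lysyl oxidases in sum. The 10 substrate genes summed to 761, 779 and 751 RPKM in the wild-type-labelled and to 66.6, 66.1 and 66.02 RPKM in the null-labelled libraries, 11.5-fold lower. Summed substrate RPKM per summed lysyl oxidase RPKM was therefore 7.58 ± 0.123 in the wild-type-labelled and 7.60 ± 0.141 in the null-labelled libraries (SD, n = 3), and the groups overlapped. The summed RPKM of these 10 genes per lysyl hydroxylase RPKM fell from 14.4 ± 0.151 to 1.21 ± 0.028 (SD, n = 3). Per P4ha1 and P4ha2 RPKM it fell from 14.6 ± 0.208 to 3.34 ± 0.0080 (SD, n = 3). Other collagens were not in the sum, so the ratios to the hydroxylases do not cover all of their substrates. The near-equal ratio to the lysyl oxidases joins different genes on both sides. Col5a1, a chain of the minor fibrillar collagen V, made up 10.3% ± 0.171 of the wild-type-labelled substrate sum and 82.8% ± 0.222 of the null-labelled one (SD, n = 3). Loxl4 made up most of the null-labelled oxidase sum. These ratios compare transcripts and not enzyme activities.

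**Figure D4:**
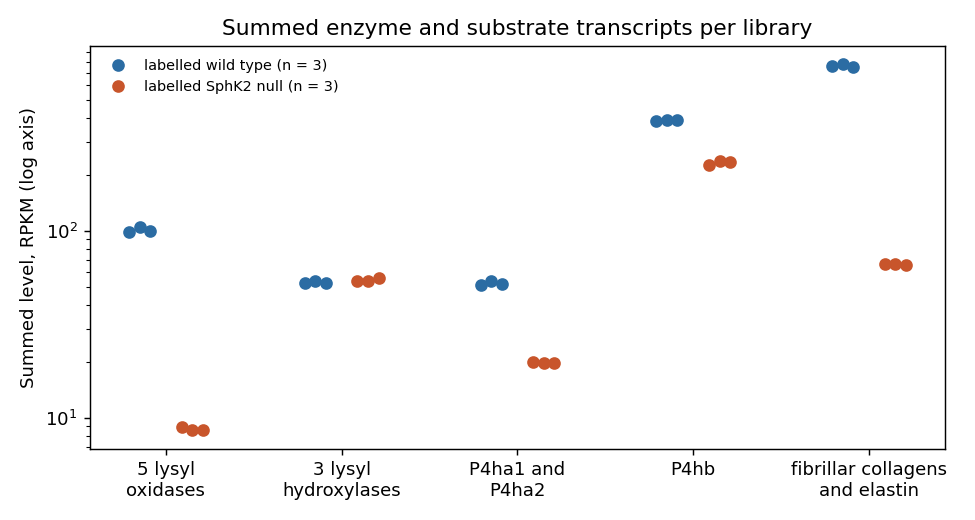
Summed RPKM (log axis) of the 5 lysyl oxidases, the 3 lysyl hydroxylases, P4ha1 with P4ha2, P4hb alone, and the fibrillar collagens with elastin, each point 1 library, wild-type-labelled in blue and null-labelled in orange. The lysyl hydroxylases sit at 52.7 to 55.8 RPKM in all 6 libraries, while the oxidases and the collagens are lower by a similar factor.

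Other hydroxylase subunits and glycosyltransferases mostly fell too. Of 11 genes, 9 were tested, of which 7 were lower, 1 was higher and 1 was not past the threshold, with a median log2 fold change of -0.61. P4ha3, the alpha subunit outside the 10, stood at 29.4 ± 1.96 against 0.825 ± 0.30 CPM (SD, n = 3), 36.1-fold lower. Its share of the sum of all 3 alpha subunits went from 15.6% ± 1.21 to 1.35% ± 0.490 (SD, n = 3). That sum of 3 was 3.08-fold lower under the null label. P4hb, the partner subunit and a general disulfide isomerase, was 1.68-fold lower, at 391 ± 2.74 against 233 ± 5.62 RPKM (SD, n = 3). P4hb per summed alpha subunit RPKM was 6.31 ± 0.038 in the wild-type-labelled and 11.6 ± 0.304 in the null-labelled libraries (SD, n = 3). P3h4, which works in a complex with Plod1, was 2.03-fold lower, whereas Plod1 was 1.08-fold higher. Colgalt1, which adds galactose to the hydroxylysines that lysyl hydroxylases make, was the gene that rose, 2.29-fold. Crtap, which works with the prolyl 3-hydroxylases, did not pass the threshold at 1.02-fold, and Colgalt2 and P4htm had too few counts to test. P3h2, a prolyl 3-hydroxylase of lower counts (510 against 54), was 9.04-fold lower.

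Collagen chaperones and export factors were lower in 13 of 14 and higher in 1, with a median of -0.62. Hspa5, the chaperone BiP of the endoplasmic reticulum, was 2.27-fold lower, Sec24d, a coat protein of the vesicles that carry procollagen, 2.53-fold lower and Mia2, a receptor at the exit sites of the same compartment, 2.58-fold higher. Larger falls at lower counts were those of Creb3l1 (9.68-fold), a transcription factor of collagen secretion, and of the prolyl isomerases Fkbp14 (8.39-fold) and Fkbp7 (6.18-fold). Of 7 tested procollagen processing genes, 5 were lower, 1 was higher and 1 was not past the threshold (median -0.26). Bmp1, the protease that trims procollagen and also activates the Lox precursor, was 1.16-fold lower, at 191 ± 3.12 against 165 ± 2.26 CPM (SD, n = 3). Pcolce, which enhances that cleavage, differed by -0.26 ± 0.022 (SE) on the log2 scale, and Adamts14, which removes the amino-terminal propeptide, was 2.37-fold lower. Adamts3, a protease of the same kind, was the gene that rose, from 34 to 308 counts, and Pcolce2, at 1.06-fold, was the one not past the threshold. The largest falls of the list were in genes of low counts. Adamts2, also a remover of that propeptide, went from 144 to 4 counts (31.6-fold lower in the edgeR fit). Tll1, a relative of Bmp1, went from 54 counts to 1 and was 38.3-fold lower in the same fit. Its ratio of depth-scaled counts was 51.9, with an exact 95% counting interval of 8.94 to 2089.

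Substrates and assembly partners of the lysyl oxidases differed most. Of 9 tested fibrillar collagens, 6 were lower and 3 higher (median log2 fold change -8.43), while elastin had 6 counts against 0 and was not tested. The 3 that were higher, Col2a1 (5.77-fold), Col5a3 (3.37-fold) and Col11a2 (5.68-fold), are named after their values were seen. Other chains of the same collagens, Col5a1, Col5a2 and Col11a1, were lower. Col5a2, Col11a1 and Col1a1 were 422-fold, 386-fold and 370-fold lower, sizes near that of Lox. Of 11 partners in fibre assembly, 9 were lower, 1 was higher and 1 was not past the threshold, with a median of -7.36, or -7.16 with Mfap4, at 0 counts in the null-labelled group, set to 3 counts over that group. Tnxb, a tenascin, was the partner that rose (9.16-fold), and Mfap5 was not past the threshold with 57 counts against 50. Fn1, which encodes fibronectin, a binding partner of Lox, was 602-fold lower and Fbln5, a fibulin that binds Loxl1 in elastic fibres, 327-fold lower with 4 counts left. Lum, the collagen-binding proteoglycan lumican, had 917 counts against 3 and was 262-fold lower in the edgeR fit, the measure of the other folds here. Its ratio of depth-scaled counts was 294, with an exact 95% counting interval of 100.3 to 1429.

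Genes that supply the cofactors or sense oxygen did not follow the oxidases. Of 7 genes of copper and ascorbate supply, 4 were higher, 2 lower and 1 not past the threshold (median 0.19). Slc23a2, an ascorbate transporter, was 1.90-fold higher, Atox1, a copper chaperone, 1.25-fold higher and Slc31a1, the main copper importer, 1.48-fold lower. Ccs, the copper chaperone of superoxide dismutase, was the other that fell (1.21-fold). Of 8 genes of hypoxia-inducible factors and the hydroxylases and ligase that limit them, 6 were higher and 2 lower (median 0.50). Hif1a, the oxygen-regulated alpha subunit, was 1.29-fold higher, and Egln1, Vhl and Hif1an, which lead to its breakdown or block its activity, were 1.74-fold, 1.55-fold and 1.54-fold higher. The 2 that were lower were Arnt, the shared beta subunit, at a log2 fold change of -0.26, and Epas1, the second alpha subunit, with 58 counts against 8. Of 12 other hypoxia response genes, 7 were higher, 3 lower and 2 not past the threshold (median 0.30). Adm and Ndrg1 were 3.26-fold and 2.09-fold higher and Bnip3 1.81-fold lower. Car9 (391 counts against 34) and Ero1a (1.32-fold) were the others that fell, and Vegfa and Pgk1 did not pass the threshold.

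**Figure D5:**
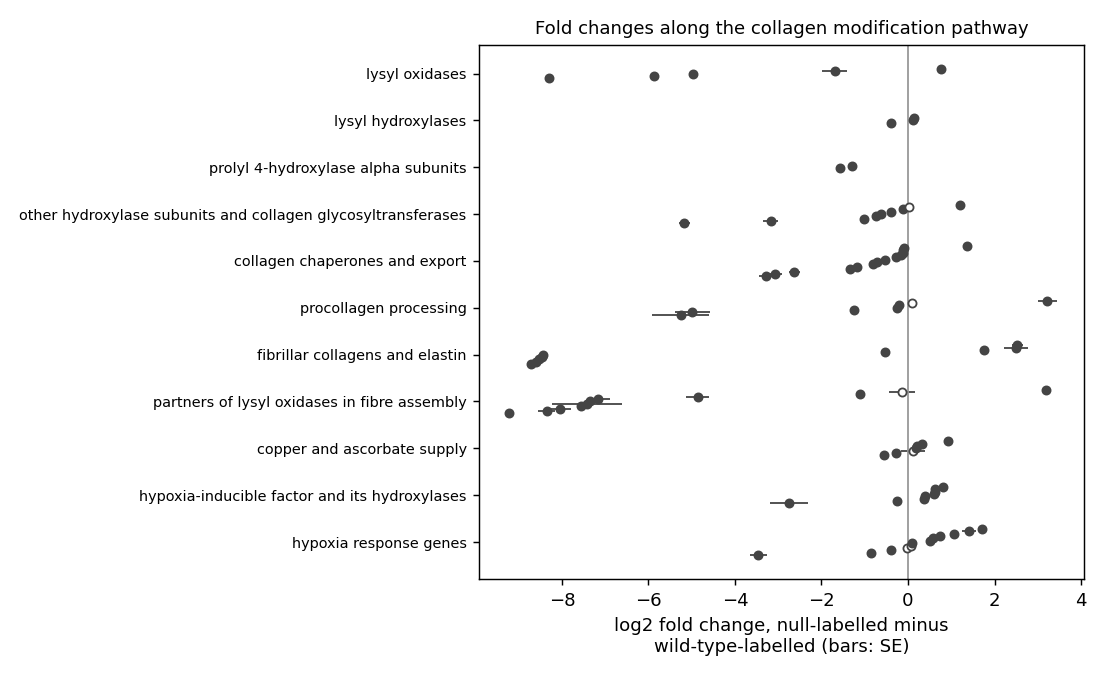
Log2 fold change (null-labelled minus wild-type-labelled) of every tested gene in the 3 enzyme families and 8 further lists along the pathway, with bars for the SE, filled where the adjusted p was under 0.05 and open where it was not. Most fibrillar collagens and fibre partners lie far to the left, beside Lox, while the lysyl hydroxylases and the cofactor genes lie near 0.

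The genes whose level moved most like 3 of the enzymes were found by the root mean square distance between log2 CPM centred on the mean over the 6 libraries. The search covered 9541 genes whose average log2 CPM was 3 or more. Nearest to Lox were Thbs1 (thrombospondin 1 of the matrix, distance 0.0996 log2 units), Xist (the noncoding RNA of the inactive X chromosome, 0.143) and Ica1 (0.161). Xist stood at 688 against 1.96 CPM, Thbs1 at 518 against 1.66 CPM and Ica1 at 41.0 against 0.0348 CPM. The sex of the embryos was not given. A difference between the groups in sex or X inactivation could not be told apart from the label and was not tested. The null-labelled level of Ica1 lay under that of 3 counts in any library, and its fitted log2 fold change, -9.91, was larger in size than that of Lox. Nearest to Plod2 were Vps11 (0.0195), Rpp25l (0.0214) and Msi2 (0.0254), and 1208 genes lay within 0.1 of it. Nearest to P4ha1 were Asph, which encodes aspartate beta-hydroxylase (0.0266), Bace1 (0.0270) and Desi2 (0.0290), among 168 genes within 0.1. Within 0.1 of Lox there was 1 gene. With only 2 groups the measure depends mainly on the group difference, and near 0 counts it is held back by the prior count added before taking logs.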

How the data were processed

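Libraries of 3 wild-type-labelled and 3 null-labelled samples were analysed. The authors deposited 1 file of whole-number counts per gene for each library, made per the file headers with featureCounts 1.6.2 from Ensembl release 83 exons on GRCm38 with mm10 chromosome names, with no option for strand or multimapping reads. Trimmomatic 0.33, FastQC 0.11.2 and Subread 1.6.2 are also named, per the submitters' processing notes, which give another featureCounts version (1.2.6). Symbols matched 46488 of 46983 identifiers, and Ero1a was matched through its RefSeq synonym Ero1l.

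Genes passing edgeR's filterByExpr (15199) were TMM-scaled and tested with edgeR 4.0.16 (R 4.3.3, robust quasi-likelihood, no covariate). Adjustment was by Benjamini and Hochberg over all genes tested, with a threshold of 0.05, and the SE is the log2 fold change over the square root of F. Shares and sums were compared by exact permutation. On counts simulated for the null-labelled against wild-type-labelled comparison (14888 genes fitted), calls were made for 58% of 50 genes with a 1.2-fold change and 72%, 94% and 98% of as many with 1.5-fold, 2-fold and 4-fold changes. Among 14688 unchanged genes there were 7 calls. Only those few genes were changed in the simulation, and all genes were given the same spread between replicates. In the data most genes differed, so these rates need not hold there.

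The 10 genes, the lists and the naming rule were chosen with earlier results of these data known. Named were the 10 genes, Sphk2, in each pathway list the 3 genes with the largest change past the threshold at an average log2 CPM of at least 3, with P4hb, Bmp1 and Hif1a, and the 3 nearest genes to Lox, Plod2 and P4ha1. Marker genes, and list members outside this rule, were named after their values were seen. Counting intervals cover counting error only. Protein sequences were not used here. Within a group, replicates differed by more than sampling noise (chi-square per degree of freedom 1.44 to 2.04), so none was merged. Alternatives were median-of-ratios factors, DESeq2 1.42.0, limma-voom (limma 3.58.1), no filter on low counts, over 1 CPM in 3 libraries, a replicate block, CPM in place of RPKM for shares, and each library left out.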

Additional observations from a re-analysis of the deposited data

How the results depend on the processing

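Each of the 10 enzymes kept its direction and stayed past the threshold under all 12 alternative fits, 120 fold changes in all. The log2 fold change ranged from -8.50 to -8.17 for Lox, from 0.73 to 0.81 for Loxl4 and from 0.09 to 0.13 for Plod1, whose largest adjusted p was 0.0203. For Plod3 it ranged from 0.11 to 0.16. The genes outside the 10 that the naming rule chose did the same, and those named after their values were seen were not followed through the alternatives. Over all genes, 5795 were higher and 6245 lower, against 5206 and 5798 with DESeq2, 6011 and 7303 with no filter, and 5641 to 5697 and 6108 to 6251 with 1 library left out. With the replicate number as a replicate block, 5765 were higher and 6238 lower, and 3 and 7 of the 10. Same-numbered libraries deviated together at correlations of 0.0035, -0.0045 and 0.044. Pairing by number was thus not visible, which does not show that the samples were handled apart. No share changed direction when summed CPM replaced RPKM or when a library was left out. The median log2 fold change of all genes stayed between -0.03 and -0.01. Every scaling used takes most genes as unchanged and sets this median near 0, so its steadiness is not a test of the scaling. Small changes such as the rises of Plod1 and Plod3 rest on that assumption, which was not tested. Depth limits Loxl2 in both groups and Lox and Loxl1 in the null-labelled libraries, which rest on 31, 44 and 55 counts.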
